A study of Pisaster ochraceus with 50 samples.

Results

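The 150 genes described here were the most evenly expressed genes of moderate abundance in 3 tissues of the ochre sea star Pisaster ochraceus. They were selected on measured values. In the asymptomatic libraries of McClures Beach and Lifeboat House, each gene's reads were divided by all gene reads of the library and put on the usual CPM scale, so a value is a share of the library. A gene entered the band if its mean was between 50 and 300 CPM in each of dermis, tube feet and pyloric caecum, which 390 of 21777 genes met. The SD of log2(CPM + 1) over animals was then taken in each tissue, and the 150 genes whose largest SD of the 3 was lowest were kept. The other 240 genes of the band serve as the comparison. Levels, SDs, tissue differences and size differences of these libraries chose the genes, so they are given below as descriptions with no test. The symptomatic libraries had no part in the choice. The files do not pair gene IDs with names, so the genes are given by ID and no function, position or sequence is stated.

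Tissue was taken from 17 wild animals of Point Reyes, 15 asymptomatic and 2 symptomatic for sea star wasting disease, and gave 48 libraries. Asymptomatic libraries numbered 14 for dermis, 13 for tube feet and 15 for pyloric caecum, from 14 animals of McClures Beach and 1 of Lifeboat House (M0D055234V). Of these 15 animals, 13 were labelled as not feeding and 2 as feeding. By color they were labelled orange or brown, except M0D055234V, labelled purple. Each tissue also had 2 symptomatic libraries, both from animals labelled as not feeding. The animals were M0D055233U, large, brown, of McClures Beach and batch 2, and M0D055236X, medium, orange, of Lifeboat House and batch 5. By size class, small, medium, large and x-large asymptomatic animals gave 3, 3, 5 and 3 libraries of dermis, 2, 3, 5 and 3 of tube feet, and 3, 3, 5 and 4 of pyloric caecum. Another 2 libraries of tube feet came from Friday Harbor, 1 labelled asymptomatic and 1 symptomatic under the same individual ID, and they were used only in an alternative to the tube feet disease fit. Age and sex are not given in the labels, and with 2 symptomatic animals the disease comparison rests on those animals alone.

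Dermis is the body wall, tube feet are the hydraulic podia used for walking and gripping, and the pyloric caecum is the digestive and storage gland that fills each arm. Wasting disease is marked by skin lesions, loss of arms and collapse of the body. Genes whose transcripts hold an even level across animals and tissues are used as internal references when other genes are measured, and in animals at large many of them serve basic work of every cell. Because these are bulk tissue samples, a change in the share of a cell type and a change in the RNA per cell cannot be told apart.

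Gene reads per library ranged from 373930 to 1105416. Between 70.5% and 88.4% of the reads in the files were assigned to no gene. The tissue labels could not be checked against defining markers because the IDs have no names. No member was at 0 reads in any of the 48 libraries. The median member had 49.5 reads in an asymptomatic dermis library, 84 in tube feet and 63 in pyloric caecum, and the lowest values were 7, 14 and 15 reads.

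The members' ranking value, the largest of their 3 SDs, ran from 0.418 to 0.736 on the log2 scale, with a median of 0.627. The other genes of the band ran from 0.736 to 3.16, with a median of 0.934. The list therefore had no gap at its edge. The last genes inside, g13494, g16886 and g12718, had ranking values of 0.735, 0.736 and 0.736, and the first outside, g20140, g12097 and g7322, had 0.736, 0.737 and 0.737. Tube feet set few of these values: the largest SD was in dermis for 70 members, in pyloric caecum for 75 and in tube feet for 5. An SD under 0.5 was found for 135 members in tube feet, for 48 in dermis and for 52 in pyloric caecum.

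The members had a median SD of 0.56 in dermis (14 libraries), 0.32 in tube feet (13 libraries) and 0.56 in pyloric caecum (15 libraries), which on a linear scale is a factor of 1.48, 1.25 and 1.47. The other genes of the band had median SDs of 0.78, 0.35 and 0.80. Counting alone would give the members a median SD of 0.20, 0.15 and 0.18 at these read numbers. The observed SD was a median of 2.76 times the counting SD in dermis, 2.02 times in tube feet and 3.10 times in pyloric caecum. For the other genes of the band it was 3.82, 2.33 and 4.61 times. The SD was used to choose the members, so these ratios only describe the list.

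**Figure D1:**
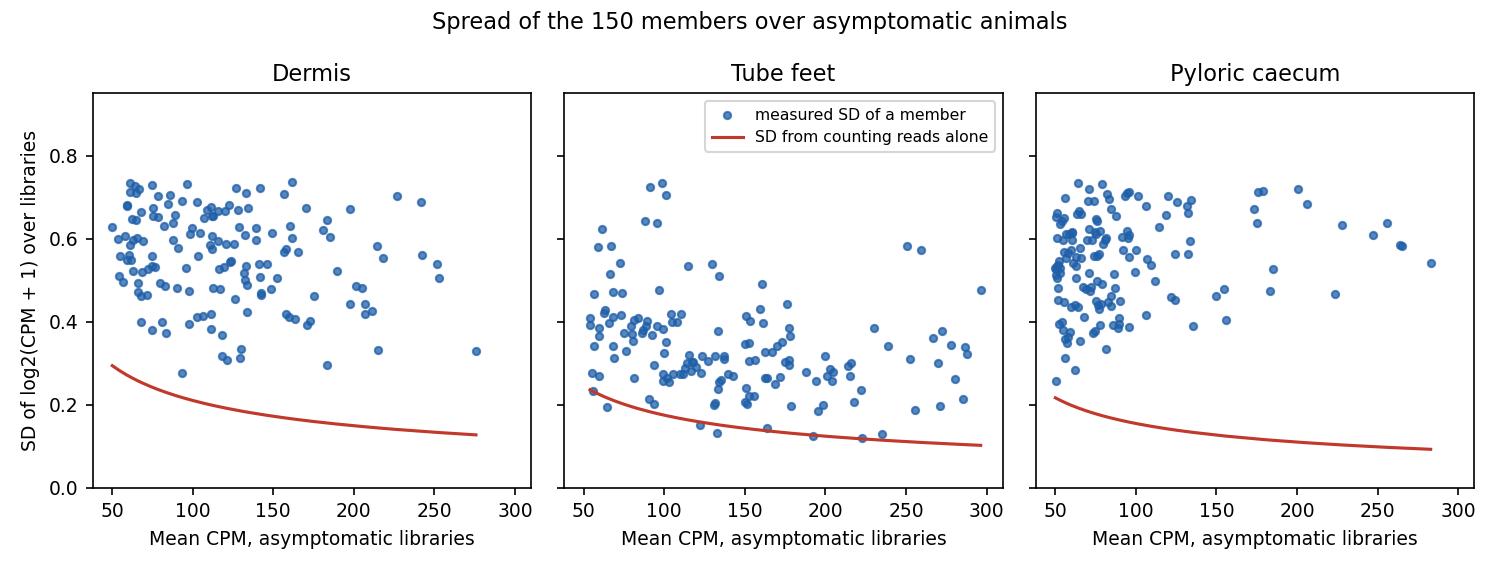
Spread of the 150 members over asymptomatic animals, in 1 panel per tissue. Each point is 1 member, with its mean CPM on the x axis and the SD of its log2(CPM + 1) over libraries on the y axis, and the line is the SD that counting reads alone would give; members were chosen on this SD, so no point passes 0.736, and tube feet points lie lowest and nearest the line, with a median of 0.32.

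Lists ranked on a pair of tissues were then looked at in the remaining one. When dermis was left out of the ranking, the 150 genes then chosen had a median SD of 0.66 in dermis, against 0.67 for the rest of the band. When pyloric caecum was left out, the values there were 0.65 and 0.68. For tube feet they were 0.32 and 0.35. In each case the list lay close to the rest of the band. These lists shared 99, 95 and 149 genes with the 150 members, when dermis, pyloric caecum and tube feet were left out in turn.

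The steadiest member was g5932, with SDs of 0.42 (dermis), 0.34 (tube feet) and 0.35 (pyloric caecum). Its CPM ranged from 87.8 to 322 in dermis with a median of 212, from 184 to 393 in tube feet with a median of 286, and from 38.5 to 106 in pyloric caecum with a median of 63.9. The gene was steady within each tissue but not between tissues. The second, g16088, was even in both senses. Its CPM ran from 72.2 to 226 (median 126) in dermis, 73.7 to 128 (median 102) in tube feet and 67.4 to 183 (median 102) in pyloric caecum, so the 3 tissues overlapped. The third, g4157, ran from 44.9 to 138 (median 78.7), 46.8 to 77.8 (median 65.2) and 43.2 to 121 (median 91.7) CPM. The fourth, g9060, ran from 74.5 to 169 (median 110), 76.8 to 154 (median 110) and 36.3 to 137 (median 81.7) CPM. These 3 genes overlapped between all tissues.

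The next 6 by rank were g15603, g15141, g6103, g9103, g17244 and g18382, with ranking values of 0.449 to 0.480. In tube feet, g15141 had the lowest SD of all members, 0.12, with 191 to 252 CPM over 13 animals. The same gene ran from 50.7 to 201 CPM in dermis and from 40.4 to 153 in pyloric caecum, where its SDs were 0.47 and 0.46. The SD of g17244 was 0.31 (dermis), 0.27 (tube feet) and 0.47 (pyloric caecum). Among the 10 steadiest genes, the tissue of the largest SD was dermis for some and pyloric caecum for others, and for g6103 it was tube feet, at 0.47.

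The most abundant members over the 3 tissue means were g3049 and g4781, at means of 248 and 242 CPM, and the least abundant were g20474 and g19092, at 55.5 and 56.8 CPM. The dermis mean of g3049 was 276 ± 61.4 CPM (SD over 14 libraries), beside 267 ± 57.3 in tube feet and 201 ± 105 in pyloric caecum (13 and 15 libraries). For g20474 the means were 53.7 ± 22.0, 56.5 ± 11.8 and 56.3 ± 14.8 CPM. Each of these genes varied most in a different tissue: g3049 in pyloric caecum, with an SD of 0.72 on the log2 scale, and g20474 in dermis, with 0.60.

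Much of the spread was shared by many members within a library. The first principal component of the members' log2 values over asymptomatic animals held 50.3% of their variance in dermis, 38.8% in pyloric caecum and 21.1% in tube feet. Together the members took 1.95% to 2.31% of the gene reads in asymptomatic tube feet, 0.885% to 2.33% in dermis and 0.843% to 2.09% in pyloric caecum.

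The asymptomatic dermis library of M0D055226N stood apart. The median member had a shift of -1.08 on the log2 scale from its mean in the other asymptomatic libraries, and 100 of 150 members were below every other asymptomatic dermis library. In it 1 gene, g15, took 13.8% of the reads. The number of genes with a read, 10403, did not set it apart, since M0D055222J dermis had 10361. At the other end, the dermis library of M0D055234V had a median shift of 0.52 and 41 members above all others. In pyloric caecum, M0D055221I had a shift of -0.74 with 57 members below all others, and M0D055227O a shift of 0.68 with 60 members above. In asymptomatic tube feet the shifts stayed between -0.07 and 0.17. Since CPM is a share of the library, these shifts do not separate a change of the members from a change of the rest. The other genes of the band moved the same way, by -1.36 in M0D055226N dermis, 0.76 in M0D055234V dermis, -1.01 in M0D055221I pyloric caecum and 0.68 in M0D055227O pyloric caecum.

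**Figure D2:**
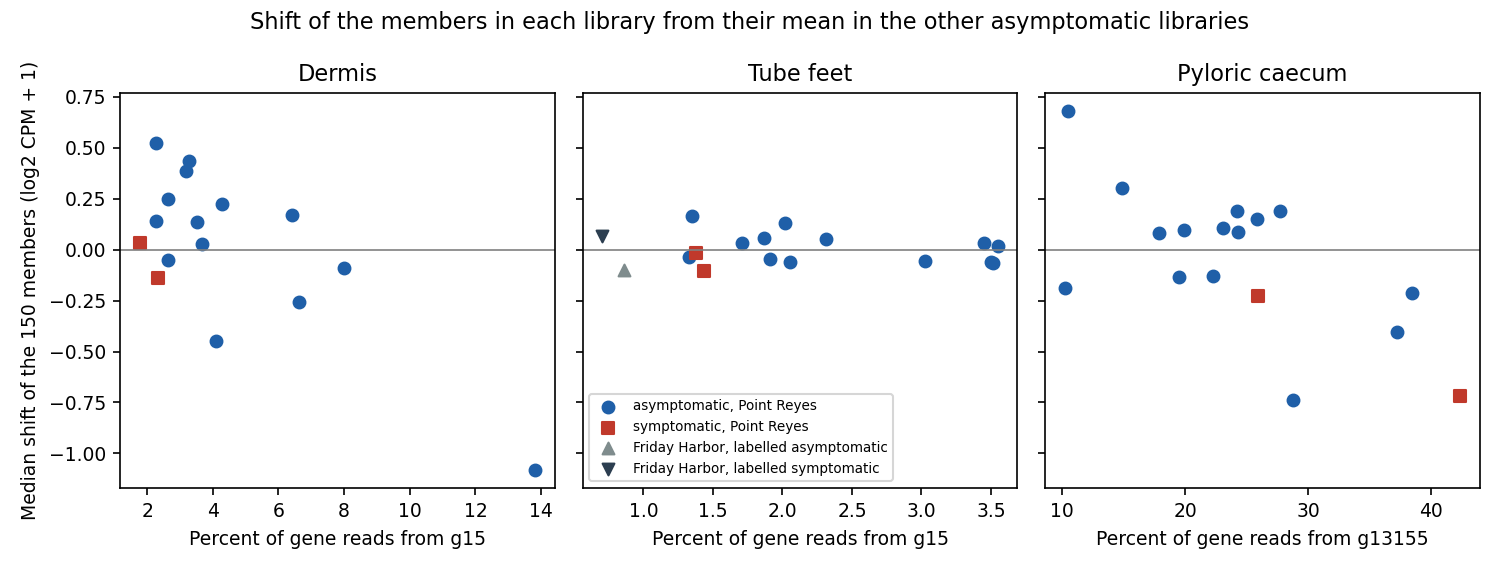
Median log2 shift of the 150 members in each library from their mean in the other asymptomatic libraries of the tissue (y axis), against the percent of gene reads taken by the tissue's most abundant gene, g15 or g13155 (x axis), with 1 point per library and Friday Harbor drawn apart. Asymptomatic dermis runs from -1.08, in the library with 13.8% of reads from g15, to 0.52, and pyloric caecum from -0.74 to 0.68, while asymptomatic tube feet stay between -0.07 and 0.17; the symptomatic pyloric caecum library of M0D055236X lies at -0.72 with 42.3% of reads from g13155.

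Scaling libraries by TMM, which sets library sizes so that most genes do not move, lowered the SD of 124 members in dermis and 118 in pyloric caecum. The median SD became 0.41 (dermis), 0.32 (tube feet) and 0.46 (pyloric caecum). With plain CPM but without M0D055226N, the dermis median was 0.46, and without M0D055221I and M0D055227O the pyloric caecum median was 0.49. The choice of the list depended on this as well. Only 73 of the 150 genes would have been chosen from TMM-scaled values.

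By plain CPM, the median member was highest in tube feet at 131, then dermis at 113 and pyloric caecum at 76.2. The highest mean was in tube feet for 88 members, dermis for 39 and pyloric caecum for 23. This order turned with the scaling. With TMM sizes over the 42 asymptomatic libraries, 75 members were highest in pyloric caecum, 56 in dermis and 19 in tube feet. The medians were then 107, 110 and 90.4. Over the 12082 genes with at least 1 CPM in each tissue, the median log2 ratio was 0.52 for tube feet over dermis, -0.50 for pyloric caecum over dermis and -1.09 for pyloric caecum over tube feet by plain CPM, and 0.11, 0.10 and -0.09 with TMM. In asymptomatic pyloric caecum the single gene g13155 took a mean of 23.0% of reads, while the top gene of dermis and tube feet, g15, took 4.76% and 2.43%. A total of 65 members kept the same highest tissue under both scalings, 23 (dermis), 19 (tube feet) and 23 (pyloric caecum).

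The ratio of the highest to the lowest tissue mean was a median of 1.84 by plain CPM, from 1.03 to 4.86. It was under 1.5 for 41 members, over 2 for 64 and over 3 for 10. The band itself allows a ratio of at most 6 by construction. With TMM sizes the median ratio was 1.65. The most equal members were g18439, with means of 74.8, 74.1 and 76.0 CPM in dermis, tube feet and pyloric caecum, g20474, and g18713, with 185, 178 and 175 CPM.

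The members with the largest ratios in each tissue were named by plain CPM, and the ratios moved with the scaling. The largest by plain CPM was that of g11632, at 4.86 against 2.35 with TMM, with 287 ± 63.1 CPM in tube feet (SD, n = 13). Its means were 113 ± 44.6 in dermis (n = 14) and 59.0 ± 16.1 in pyloric caecum (n = 15). Its tube feet libraries ran from 179 to 394 CPM and its pyloric caecum libraries from 40.0 to 94.7, with no overlap. The second in tube feet was g5932, also without overlap between tube feet and pyloric caecum, and it was higher in tube feet in 13 of 13 animals with both. Under TMM, however, g5932 was highest in dermis, and its ratio of 4.24 became 2.13. In dermis, g2784 had 253 ± 89.0 CPM, against 95.3 ± 42.7 in tube feet and 78.9 ± 27.8 in pyloric caecum. The other dermis gene, g10464, had 227 ± 99.8 CPM there and 90.9 ± 34.1 in tube feet, and was higher in dermis in 11 of 12 animals. In pyloric caecum, g15239 had 223 ± 66.1 CPM against 64.0 ± 36.0 in dermis, and g16896 had 247 ± 99.7 against 98.5 ± 53.9 in tube feet. Both were higher in pyloric caecum in every animal with the pair, 14 and 13 animals, though the ranges overlapped. With TMM the ratio of g15239 went from 3.49 to 5.32, above that of g11632, and the ratio of g16896 from 2.51 to 5.08.

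**Figure D3:**
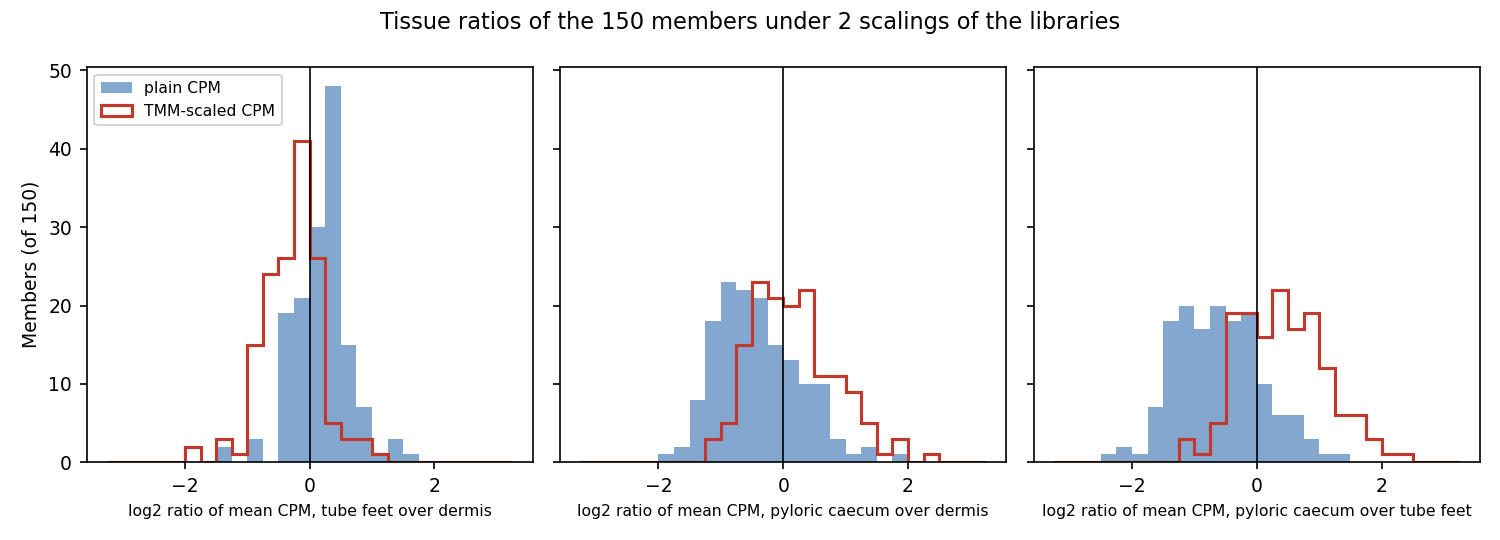
Histograms of the log2 ratio of mean CPM between each pair of tissues for the 150 members (asymptomatic libraries), filled for plain CPM and outlined for TMM-scaled CPM; the y axis counts members. The median ratio of tube feet over dermis is 0.24 by plain CPM and -0.21 with TMM, that of pyloric caecum over dermis is -0.48 and 0.06, and that of pyloric caecum over tube feet is -0.64 and 0.40.

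In the edgeR quasi-likelihood fit of all 48 libraries, with Benjamini-Hochberg adjusted p under 0.01 as the call, 6 members were higher and 34 lower in tube feet than in dermis, where 17.0% and 12.6% of all 15245 genes were called higher and lower. In pyloric caecum against dermis, 38 were higher and 18 lower (19.5% and 20.0% of all genes), and in pyloric caecum against tube feet 58 were higher and 9 lower (16.6% and 21.3%). The band and the SD rule used these levels, so the counts only describe the list. Without TMM scaling, the counts were 15 and 5, 12 and 66, and 5 and 79. The shares of all genes called in that fit are not given here. By plain CPM, 8671 of 12082 genes were higher in asymptomatic tube feet than in dermis. In pyloric caecum 8321 were lower than in dermis and 10149 lower than in tube feet, so most genes went the way of most members. Called the same way under both scalings were 6 and 5, 12 and 18, and 5 and 9 members, and 0 were called in opposite directions.

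Size classes were compared among asymptomatic animals as a description. All small animals were labelled orange and not feeding. The x-large animals were labelled orange or brown and included M0D055231S, labelled as feeding. Color, feeding and batch were not balanced between these classes and cannot be told apart from size. In tube feet, 47 members did not overlap between the 2 small and 3 x-large libraries, 38 of them higher and 9 lower in x-large animals. Over all genes tested in tube feet this share was 27.0%, against 31.3% of the members. In pyloric caecum 20 members did not overlap, 18 higher and 2 lower, or 13.3% beside 12.1% of all genes. In dermis it was 15, 3 higher and 12 lower, or 10% beside 12.2%. The members' shares thus lay near those of all genes. The direction depended on the scaling: with TMM sizes 25 members did not overlap in pyloric caecum, 11 higher and 14 lower, and 16 in dermis, 11 higher and 5 lower. In tube feet it was 44 with TMM, 32 higher and 12 lower. By plain CPM the median absolute log2 difference was 0.21 (dermis), 0.25 (tube feet) and 0.33 (pyloric caecum). It was 0.52, 0.49 and 0.54 over all genes and 0.32, 0.31 and 0.59 for the other genes of the band. Members were chosen for a low SD over these libraries, and all genes tested reach down to a mean of 1 CPM. With fewer libraries left to overlap, counts rose when 1 small or x-large library was left out, to between 21 and 54 in dermis (54 without M0D055228P), 53 and 83 in tube feet (83 without M0D055219G) and 21 and 35 in pyloric caecum (35 without M0D055229Q).

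By plain CPM, the widest size differences were in tube feet and pyloric caecum. In tube feet, g15239 had 29.9 and 49.1 CPM in the small animals and 164, 139 and 117 in the x-large, a difference of 1.82 on the log2 scale. Also in tube feet, g2291 had 61.3 and 68.8 CPM in the small and 193, 134 and 194 in the x-large, a difference of 1.38. In pyloric caecum, g20347 had 62.9, 71.7 and 50.8 CPM in small animals and 126, 204, 261 and 176 in x-large, a difference of 1.58. All 3 genes had every x-large library above every small one. For g17995 in pyloric caecum the small libraries were at 35.6, 34.5 and 43.5 CPM and the x-large at 79.3, 112, 116 and 119, a difference of 1.45.

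In dermis the widest differences by plain CPM were toward lower values in x-large animals. There, g10464 had 219, 422 and 243 CPM in small animals and 80.5, 131 and 175 in x-large, with no overlap. The largest difference in dermis, -1.33 for g14792, came with overlap, since x-large M0D055229Q had 182 CPM and small M0D055220H 153. By plain CPM, g13411 alone of all members was free of overlap in all 3 tissues, and it was lower in x-large animals each time. Its class means for small and x-large were 143 and 74.0 CPM in dermis, 221 and 132 in tube feet, and 93.1 and 48 in pyloric caecum. The classes nearly met in pyloric caecum, at 68.4 CPM in small M0D055221I and 66.6 in x-large M0D055231S. The share of all genes free of overlap in all 3 tissues is not given here. In dermis, g14661 had 47.4, 51.6 and 35.2 CPM in small animals and 78.8, 62.1 and 95.2 in x-large, while g15239 overlapped. Some of the other named genes also overlapped: in tube feet g10464 and g16896, and in pyloric caecum g4495.

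The members' share of reads differed by class too. In pyloric caecum it was 1.11% ± 0.235 in small animals (SD, n = 3) and 1.30% ± 0.225 in x-large (n = 4), and in dermis 2.02% ± 0.108 (n = 3) and 1.87% ± 0.284 (n = 3). The medium dermis libraries had 1.52% ± 0.198 (n = 3).

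Disease was compared within each tissue, and few members passed the test. In dermis, 3 of 150 members rose and 3 fell in the symptomatic animals in edgeR's quasi-likelihood test (false discovery rate under 0.01, Benjamini-Hochberg over 14257 genes). Of all genes tested 2.26% were called, 1.80% as higher and 0.463% as lower. In pyloric caecum 5 rose and 3 fell, where 2.74% of all 13205 genes were called, 2.23% higher and 0.507% lower. Of the other 240 genes of the band, 15 were called in dermis, 8 higher and 7 lower, and 9 in pyloric caecum, 6 higher and 3 lower. As shares, 4% of the members were called in dermis and 5.33% in pyloric caecum, beside 6.25% and 3.75% of the other band genes. In all, 10 members were called in at least 1 tissue and 140 in none. With 2 symptomatic animals this does not show that the 140 did not change. At an unadjusted p under 0.05 in the edgeR test, 37 members passed in dermis and 50 in pyloric caecum. That was 24.7% and 33.3% of members, beside 16.0% and 20.0% of all genes and 25.8% and 29.6% of the other band genes. DESeq2 called 16 and 19 members, and its share over all genes is not given here. A low spread among asymptomatic animals was part of the choice of these genes, and it bears on how readily a member passes the test.

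**Figure D4:**
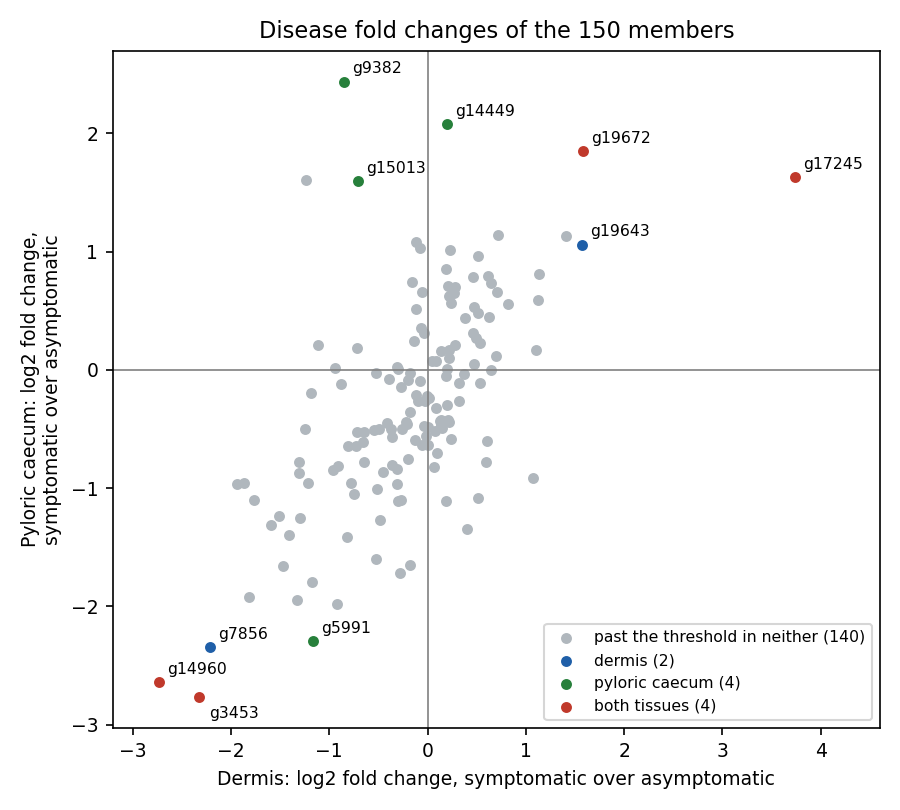
Log2 fold change of each member, symptomatic over asymptomatic, in dermis on the x axis and pyloric caecum on the y axis, with members called in dermis, in pyloric caecum or in both drawn apart. The comparisons share animals; g17245 lies farthest right at 3.74, and g14960 and g3453 lie lowest in both, at -2.73 and -2.33 in dermis and -2.64 and -2.77 in pyloric caecum.

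The largest rise was that of g17245. In dermis its 14 asymptomatic libraries ran from 74.4 to 217 CPM with a median of 117, and the symptomatic libraries had 2116 in M0D055233U and 1601 in M0D055236X. Both symptomatic values were far above the range, and the log2 fold change was 3.74 ± 0.37 (SE; edgeR quasi-likelihood, adjusted p = 2.0e-08). In pyloric caecum the asymptomatic range was 63.3 to 210 CPM with a median of 156, and the symptomatic values were 741 and 188. Only M0D055233U was outside the range there, and the log2 fold change of 1.63 ± 0.36 (adjusted p = 0.0057) was 0.73 and not called without that animal.

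In dermis g19672 ran from 85.8 to 367 CPM (median 247) in asymptomatic libraries and was 765 and 635 in the symptomatic, a log2 fold change of 1.58 ± 0.31 (edgeR, adjusted p = 0.0017). In pyloric caecum it ran from 45.3 to 194 (median 92.2) and was 504 and 174, so that M0D055236X lay within the range, with a log2 fold change of 1.85 ± 0.34 (adjusted p = 0.0011). In dermis g19643 ran from 78.0 to 320 CPM (median 202), with 710 and 416 in the symptomatic animals and a log2 fold change of 1.57 ± 0.34 (adjusted p = 0.0040). In dermis these 2 genes, like g17245, had both symptomatic libraries above every asymptomatic one.

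The falling members of dermis had both symptomatic libraries below every asymptomatic one. In dermis g14960 ran from 78.0 to 258 CPM (median 124) and was 15.2 and 24.9 in the symptomatic animals, a log2 fold change of -2.73 ± 0.47 (edgeR, adjusted p = 0.00026). For g3453 in dermis the range was 29.9 to 106 (median 59.2) and the symptomatic values 13 and 10.7, with a log2 fold change of -2.33 ± 0.50 (adjusted p = 0.0040). For g7856 in dermis it was 45.5 to 193 (median 115), with 17.3 and 30.2, and -2.21 ± 0.52 (adjusted p = 0.0079).

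Falling members in pyloric caecum were g3453, g14960 and g5991. For g3453 the asymptomatic range was 38.4 to 148 CPM (median 88.4) and the symptomatic values were 15.0 and 9.05, a log2 fold change of -2.77 ± 0.55 (edgeR, adjusted p = 0.0022). For g14960 the range was 90.7 to 441 (median 277), with 32.1 and 39.8, and -2.64 ± 0.54 (adjusted p = 0.0028). For g5991 the range was 39.4 to 217 (median 123), with 24.6 and 17.2, and -2.29 ± 0.49 (adjusted p = 0.0044). Both symptomatic libraries again lay below the asymptomatic range for all 3.

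Among the rising members in pyloric caecum, g9382 had the largest change, from a range of 25.2 to 90.7 CPM (median 55.7) to 484 in M0D055233U and 90.5 in M0D055236X. The second value was inside the range, and the log2 fold change of 2.44 ± 0.38 (edgeR, adjusted p = 0.00014) was 1.21 and not called without M0D055233U. For g14449 the range was 29.0 to 138 (median 57.0) and the symptomatic values were 242 and 215, with a log2 fold change of 2.08 ± 0.40 (adjusted p = 0.0017). For g15013 the range was 54.6 to 132 (median 67.4) and the symptomatic values were 243 and 177, with 1.60 ± 0.31 (adjusted p = 0.0020). In g14449 and g15013 both symptomatic libraries were above all asymptomatic ones.

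**Figure D5:**
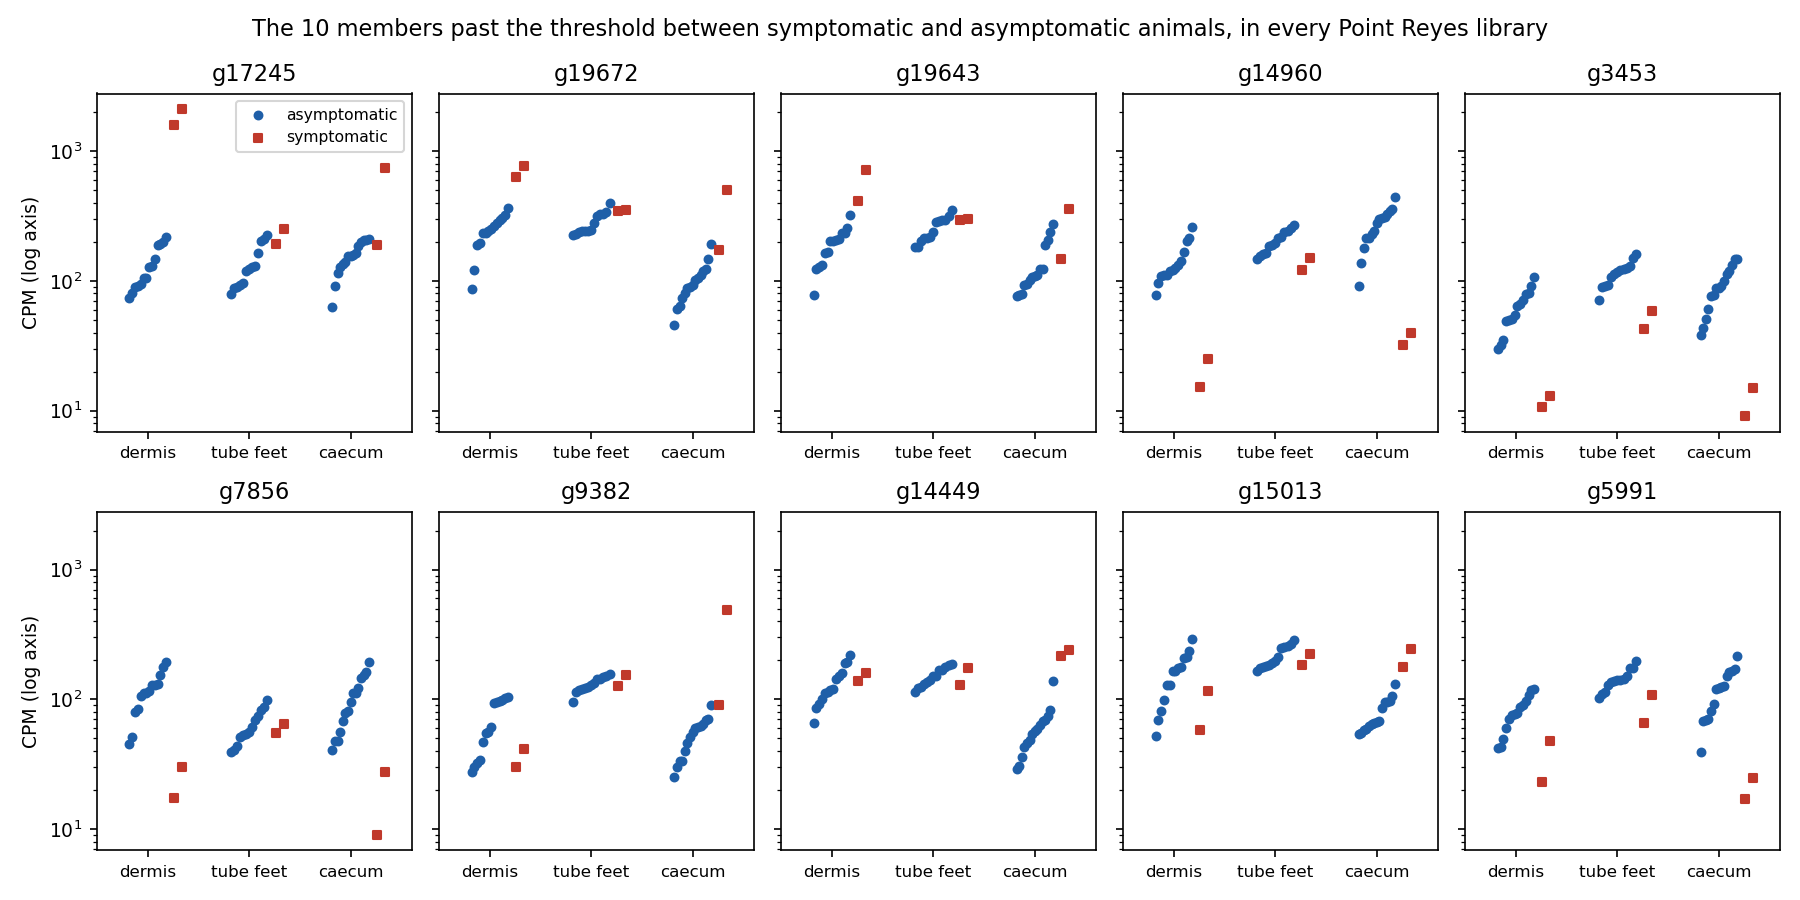
CPM (log y axis) of the 10 members called in dermis or pyloric caecum, in every Point Reyes library by tissue (x axis), circles for asymptomatic and squares for symptomatic libraries; points are ordered by value within a group and have no other order. In dermis the symptomatic points of g17245, at 2116 and 1601 CPM, lie above the asymptomatic highest of 217; in pyloric caecum g17245, g19672 and g9382 each have 1 of 2 symptomatic points above the asymptomatic range.

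The members g17245, g19672, g14960 and g3453 were called in both tissues, 4 of the 6 called in dermis and 4 of the 8 called in pyloric caecum. The dermis and pyloric caecum libraries share animals, so the lists are not independent. In tube feet 0 members were called by edgeR's quasi-likelihood test, where 0.112% of all 15176 genes were. At an unadjusted p under 0.05, 18 members passed, or 12% beside 8.72% of all genes and 21.25% of the other band genes, and DESeq2 called 0. The largest changes in each direction there were not past the test: g17245 had 79.2 to 225 CPM (median 122) against 250.5 and 194, a log2 fold change of 0.73 ± 0.34, and g13609 66.5 to 133 (median 88.4) against 133 and 177, a log2 fold change of 0.72 ± 0.25. On the low side, g10464 had 23.2 to 145 (median 95.2) against 50.4 and 27.5, and g3453 had 71.4 to 161 (median 116) against 59.0 and 42.6. Their log2 fold changes were -1.22 ± 0.50 and -1.17 ± 0.30. With the Friday Harbor pair added to the fit, 0 members were called and 15 passed an unadjusted p under 0.05. The log2 fold changes were then 0.25 for g17245, 0.46 for g13609, -0.67 for g10464 and -0.70 for g3453.

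Whether the tissues differed was tested as an interaction in 1 fit of 48 libraries. Between pyloric caecum and dermis the disease effect differed for 2 members (0.177% of all 15245 genes), g9382 by 3.29 ± 0.58 on the log2 scale (edgeR, adjusted p = 0.0010) and g15013 by 2.31 ± 0.46 (adjusted p = 0.0045). Both were higher in symptomatic pyloric caecum. In dermis the symptomatic values of g9382 were 41.2 and 30.2 CPM against an asymptomatic median of 58.9, and those of g15013 58.5 and 116 against 166. Between tube feet and dermis 0 members differed (0.105% of all genes; 20 at an unadjusted p under 0.05), and between pyloric caecum and tube feet 0 (0.144%; 30 at an unadjusted p under 0.05). For g17245 the tube feet effect minus that of dermis was -3.02 (adjusted p = 0.014), and in the paired fit with the animal as replicate block the difference was -3.06 and was called (adjusted p = 0.0072).

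The size of the changes over the whole list also differed by tissue. The median absolute log2 fold change of members was 0.41 (dermis), 0.24 (tube feet) and 0.60 (pyloric caecum). It was 0.53, 0.40 and 0.74 for the other genes of the band and 0.74, 0.42 and 0.74 for all genes tested. All genes tested reach down to a mean of 1 CPM, so they differ from the members in abundance as well as in choice. A change of more than 1 on the log2 scale was seen for 30, 3 and 38 members, or 20%, 2% and 25.3%. In the same order, it was seen for 24.2%, 7.92% and 36.25% of the other band genes. Over all genes tested it was 38.02%, 17.71% and 37.33%. Members of which neither symptomatic library overlapped the asymptomatic range numbered 18 in dermis, 6 higher and 12 lower (5.23% of all genes). They numbered 7 in tube feet, 2 higher and 5 lower (3.04%), and 26 in pyloric caecum, 2 higher and 24 lower (7.0%). Of the other 240 band genes, 22 did not overlap in dermis, 12 higher and 10 lower. In tube feet it was 30, 15 higher and 15 lower, and in pyloric caecum 18, 8 higher and 10 lower.

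The 24 lower members of pyloric caecum stood beside a shift of the libraries. The symptomatic pyloric caecum library of M0D055236X had g13155 at 42.3% of its reads and a median shift of the members of -0.72, and 36.7% of members were outside the asymptomatic range, 52 below and 3 above. In M0D055233U pyloric caecum, 35.3% were outside, 27 below and 26 above, with a median shift of -0.23. Of the other genes of the band, between 21.25% and 22.9% lay outside in these libraries. Single asymptomatic pyloric caecum libraries had between 4% and 40% of members outside the range of the others, with a median of 9.33%. The top of that span came from the shifted libraries M0D055227O (40%) and M0D055221I (38%), and the next was M0D055232T at 16%. The symptomatic shares lay below those of the shifted libraries and above the rest. In dermis 24.7% and 22.7% of members were outside in the symptomatic libraries, where asymptomatic libraries had 2% to 66.7% (median 10.7%). The highest of these were M0D055226N (66.7%), M0D055234V (27.3%) and M0D055228P (15.3%). In tube feet it was 14% and 22%, beside 10% to 22.7% (median 15.3%). With each library's median shift taken off, the members' median absolute log2 deviation was 0.69 (M0D055233U) and 0.49 (M0D055236X) in pyloric caecum. Asymptomatic pyloric caecum libraries had 0.29 to 0.45. In the same order it was 0.54 and 0.48 in dermis, beside 0.21 to 0.40, and 0.25 and 0.34 in tube feet, beside 0.16 to 0.28. The other band genes had between 18.75% and 27.5% outside in the symptomatic dermis libraries and between 19.6% and 43.75% in those of tube feet. Members, unlike the other band genes, were chosen for a low SD over the asymptomatic libraries that set these ranges and deviations. The shares of the 2 lists are therefore not on an equal footing. The parts of this choice and of library composition in these shares were not tested.

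The smallest fitted changes are given next. In dermis g18723 had 71.5 and 87.2 CPM in the symptomatic animals against a median of 78.3, in tube feet g12718 had 130 and 124 against 121, and in pyloric caecum g7596 had 66.3 and 26.2 against 43.2. Their log2 fold changes had SEs of 0.39, 0.28 and 0.39, so changes of that order would not have been told from 0. Of the 10 steadiest members none was called in any tissue, where 2.26% (dermis), 0.112% (tube feet) and 2.74% (pyloric caecum) of all genes were. At such shares, the lack of a call among 10 genes does not set them apart. Their log2 fold changes were between -0.97 and 0.74.

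Batch and site were looked at beside the calls. In dermis the 6 called members lay outside every asymptomatic library in both symptomatic animals. They therefore also lay outside the 4 asymptomatic libraries of batch 2 and the 2 of batch 5, which says nothing more on batch. In pyloric caecum batch 2 held 1 asymptomatic library and batch 5 held 2. There all 8 called members were outside every asymptomatic library in M0D055233U, so being outside batch 2 was fixed in advance. The same held for 5 of them in M0D055236X. Of the other 3, g19672 and g9382 were above both batch 5 libraries, and g17245 had 188 CPM within 156 to 208. With batch as a covariate 2 members were called in dermis and 0 in pyloric caecum. With McClures Beach alone, where 1 symptomatic animal is left, 2 and 3 were called. Without M0D055233U, 1 member (g17245) was called in dermis and 0 in pyloric caecum, and without M0D055236X, 2 (g17245 and g14960) and 3 (g17245, g19672 and g9382). No change of a called member turned its direction in either. Without the asymptomatic dermis library of M0D055226N, 6 members were called in dermis, and without the pyloric caecum libraries of M0D055221I and M0D055227O, 7 in pyloric caecum, with g17245 lost.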

How the data were processed

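The deposited files hold raw counts, whole reads for each of 21777 genes plus 5 summary lines, in 50 libraries. Per the submitters' processing notes, the authors used Trim Galore 0.4.4, TopHat2 2.0.13, SAMtools 0.1.19 and edgeR. Per the labels, RNA was extracted with a Qiagen RNeasy kit and sequenced after Illumina TruSeq v2 library preparation. Neither the read counter and its use of strand nor the genome build or gene models used are given in the sources used here. Summary lines (70.5% to 88.4% of reads with no gene, 0.136% to 0.461% ambiguous) stayed out of library sizes.

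CPM used the sum of gene counts. Tests were edgeR 4.0.16 quasi-likelihood fits (R 4.3.3) with TMM, on genes averaging 1 CPM or more, with Benjamini-Hochberg adjusted p under 0.01 as the call. SEs are the log2 fold change over the square root of F. DESeq2 1.42.0 was an alternative. The fits were tested on data drawn with known changes. Tissue fits use values that chose the members, so their counts are descriptions only. Members and lists were chosen with earlier results of these data known.

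The members named were the 10 steadiest, 3 on each side of the edge, the 2 most and least abundant, those with the most and least equal tissue means, those called in a disease or interaction fit (otherwise the 2 with the largest change per direction), the 2 with the largest size difference per direction and tissue, and that with the smallest disease change per tissue. Genes g15 and g13155 are named as the most abundant, chosen after their values were seen.

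Individual labels show that libraries of different tissues come from the same animals. Deviations from the group means of the same animal correlated across genes at a median r of 0.154 for tube feet and dermis, 0.106 for pyloric caecum and dermis and 0.120 for pyloric caecum and tube feet. Pairs of libraries of a tissue differed by far more than counting noise, so none was counted as a repeat. Alternatives covered scaling, filters, batch, site, size class, DESeq2 and single animals left out. Depth limits precision: 1 read is about 1 to 3 CPM.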

Additional observations from a re-analysis of the deposited data

Results flagged for a closer look

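For g9382 and g15013 the disease effect differed between pyloric caecum and dermis, by 3.29 and 2.31 on the log2 scale (edgeR interaction). Without either symptomatic animal, 0 members passed this test.

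In pyloric caecum of x-large animals, g19643 had 275 CPM in M0D055231S, far from the other 3 animals of that class. It was the only such gap in 44 sets of values looked at. Each set was the members' share of reads or 1 called member's CPM in 4 or 5 libraries of a tissue and size class. Many sets share libraries and are not independent, and chance alone flags about 1 in 20.

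The Friday Harbor tube feet were used only in an alternative to the tube feet disease fit. Above every asymptomatic Point Reyes tube feet library lay 15 members in the library labelled asymptomatic and 22 in that labelled symptomatic, and 28 and 9 members lay below. That put 28.7% and 20.7% of members outside, beside 32.9% and 17.1% of the other band genes, where single asymptomatic Point Reyes libraries had 10% to 22.7% of members outside the range of the others. The gene g17245 had 806 CPM in the library labelled asymptomatic and 241 in that labelled symptomatic, against an asymptomatic Point Reyes highest of 225. Both libraries are of another site and carry the same individual ID under both disease labels, and the labels do not say how these samples relate.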

How the results depend on the processing

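No direction reversed in the alternatives run for the members called in a disease or interaction fit, the 4 named for tube feet and the tube feet minus dermis effect of g17245; other named members were not rerun. With the Friday Harbor pair added, 0 members were called in tube feet and the log2 fold change of g17245 was 0.25 there. With TMM sizes, size directions turned: 11 higher and 5 lower in dermis, 11 and 14 in pyloric caecum. Of the 150 members, 73 were kept with TMM sizes, 48 with a band of 25 to 600 CPM, 99 with dermis and 95 with pyloric caecum left out of the ranking, and 94 after the shift of the other band genes was taken off, chosen after seeing the data; leaving out 1 animal kept 128 to 145. The median SD in dermis was 0.41 with TMM, 0.43 after that shift was taken off and 0.40 with TMM without M0D055226N. Called in dermis and pyloric caecum were 16 and 19 members by DESeq2, 2 and 3 in McClures Beach alone, 2 and 0 with batch as a covariate, and 2 and 5 with no scaling. With 1 symptomatic animal left out, 1 to 2 were called in dermis (1 without M0D055233U, 2 without M0D055236X) and 0 to 3 in pyloric caecum; counting the asymptomatic libraries left out, the ranges were 1 to 6 and 0 to 7. The lone symptomatic sample is then assumed to vary like the rest. For pyloric caecum minus dermis, 1 was called with no scaling and 0 without either symptomatic animal; in the paired fit, tube feet minus dermis had 1 with the replicate block, pyloric caecum minus dermis 2 and pyloric caecum minus tube feet 0, and tissue calls were 42, 57 and 72. Tube feet minus dermis tissue calls were 20 with no scaling. Leaving out 1 small or x-large library gave 21 to 54 members without overlap in dermis, 53 to 83 in tube feet and 21 to 35 in pyloric caecum. The cause was not tested. Depth limits members at 7 to 15 reads.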
